A study of Mus musculus with 8 samples.

Results

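The gas-exchange surface of the lung was examined through 35 genes of its epithelium. They comprised 17 type 2 genes (4 surfactant proteins, 9 lamellar body and surfactant lipid genes, and 4 regulators or surface genes), 12 type 1 genes, 3 keratins of simple epithelia and 3 epithelial sodium channel subunits. Members were taken by name, each through the brightest of the 65956 transcript clusters on the array that carried that single gene symbol. By this rule 34 of the 35 genes were measured. Chia1, a chitinase gene of type 2 cells, had no value because its cluster carries a pair of symbols. Of all clusters, 30638 carry 1 symbol.

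Lungs of 8 mice were compared, 1 array per mouse. The 4 Atf4 KO mice were Rosa26::CreERT2:Atf4fl/fl animals in which tamoxifen had removed exons 2 and 3 of Atf4 (Atf4Δ/Δ, also knockout here), and the 4 Atf4 WT mice were Rosa26::CreERT2:Atf4WT/WT animals (wild-type here). Both groups therefore carried the inducible Cre, which acts in all tissues, and both received tamoxifen. All mice were 13 weeks old and lungs were taken 4 weeks after tamoxifen, from 3 males and 1 female per group. The females were wild-type replicate 3 and knockout replicate 2. The question was what loss of host ATF4, the transcription factor of the integrated stress response, does to the lung. The values are log2 signals, and a difference is the knockout mean minus the wild-type mean on that scale. Total RNA came from whole lung, so fewer cells of a type and less RNA per cell cannot be told apart.

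Type 1 cells are thin and flat and form most of the surface across which gas diffuses. Type 2 cells are cuboidal. They make surfactant, the mixture of phospholipid and protein that keeps alveoli from collapsing, store it in lamellar bodies, and renew the type 1 cells. Both take part in clearing fluid from the airspace, with apical sodium channels as the entry step. Some of these genes are not restricted to alveolar cells: club cells of the airway also make several surfactant proteins, and endothelial cells express Cav1. All of the 34 measured genes but Sfta2, which lay at the 57.1 percentile of all clusters, had a mean log2 signal above 8 and lay at or above the 80.1 percentile. The defining transcripts of both alveolar cell types were therefore present in all 8 lungs.

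Atf4 itself read 6.99, 8.03, 7.995 and 7.58 in the wild-type lungs and 6.34, 6.26, 6.48 and 6.38 in the knockout lungs, values being listed here and below in the order of replicates 1 to 4. It fell by 1.29 (SE 0.21, 4 mice per group, limma adjusted p = 0.0485). Wild-type replicate 1 lay between the other wild-type lungs and the knockout, so counts are also given without it. Markers of non-epithelial cells differed between the groups. The summed log2 signal of 7 neutrophil markers lay between 11.7 and 13.1 in wild-type and between 13.4 and 17.4 in knockout lungs, that of 6 platelet markers between 12.7 and 15.8 and between 16.1 and 17.0, and that of 3 erythroid markers between 10.5 and 11.1 and between 12.3 and 14.3. That of 6 fibroblast markers was lower in the knockout, at 12.9 to 13.6 against 13.8 to 14.3. Array medians ranged from 5.21 to 5.29 and pairwise correlations from 0.988 to 0.996.

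To show the DNA in front of these genes, the 250 bases before the annotated start are printed for 6 of them. They were chosen to set both surfactant genes that differed least (Sftpa1 and Sftpb) beside the lamellar body genes Abca3 and Lamp3, the type 1 gene Aqp5, which also read lower in the knockout, and the type 1 gene Ager, which nearly matched the wild-type. Sequences are from RefSeq, build GRCm38.p6, written 5′ to 3′ along the gene. The windows lie at chr14:41131538-41131787 (Sftpa1, plus strand), chr6:72304360-72304609 (Sftpb, plus strand), chr17:24351773-24352022 (Abca3, plus strand), chr16:19706366-19706615 (Lamp3, minus strand), chr15:99590778-99591027 (Aqp5, plus strand) and chr17:34597600-34597849 (Ager, plus strand). Capitals mark matches, on either strand, to CTCAAG (the core bound by NKX2-1), TGTTTAC (FOXA) or TGATGNAA (a composite site of ATF4 and C/EBP, N being any base).
Sftpa1: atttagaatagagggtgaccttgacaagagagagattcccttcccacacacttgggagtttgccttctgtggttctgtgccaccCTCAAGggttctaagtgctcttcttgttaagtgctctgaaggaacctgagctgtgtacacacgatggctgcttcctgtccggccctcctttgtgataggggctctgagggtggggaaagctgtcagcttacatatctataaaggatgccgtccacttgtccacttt
Sftpb: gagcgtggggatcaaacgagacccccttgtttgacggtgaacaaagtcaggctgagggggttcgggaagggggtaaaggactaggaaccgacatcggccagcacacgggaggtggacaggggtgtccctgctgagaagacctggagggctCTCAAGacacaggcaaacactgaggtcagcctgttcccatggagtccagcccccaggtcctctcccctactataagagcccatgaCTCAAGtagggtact
Abca3: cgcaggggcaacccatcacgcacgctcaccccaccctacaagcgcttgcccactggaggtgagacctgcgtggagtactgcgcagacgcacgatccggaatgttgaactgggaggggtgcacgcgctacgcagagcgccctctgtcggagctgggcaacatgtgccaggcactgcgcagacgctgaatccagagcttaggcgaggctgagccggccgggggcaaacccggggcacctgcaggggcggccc
Lamp3: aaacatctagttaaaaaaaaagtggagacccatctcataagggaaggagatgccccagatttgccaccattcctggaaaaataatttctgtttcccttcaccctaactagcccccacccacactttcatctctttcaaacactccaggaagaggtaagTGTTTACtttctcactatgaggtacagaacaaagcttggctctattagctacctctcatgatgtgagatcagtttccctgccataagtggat
Aqp5: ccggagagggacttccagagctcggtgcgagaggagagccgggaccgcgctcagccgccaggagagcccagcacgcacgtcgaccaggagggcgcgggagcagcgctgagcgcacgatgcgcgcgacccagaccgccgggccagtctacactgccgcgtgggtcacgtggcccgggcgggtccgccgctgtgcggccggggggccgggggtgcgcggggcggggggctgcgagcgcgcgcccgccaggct
Ager: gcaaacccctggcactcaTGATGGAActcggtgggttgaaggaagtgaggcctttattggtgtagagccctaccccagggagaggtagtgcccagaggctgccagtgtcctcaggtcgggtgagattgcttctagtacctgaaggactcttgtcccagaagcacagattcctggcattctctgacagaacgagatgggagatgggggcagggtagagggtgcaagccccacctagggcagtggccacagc

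A window was found for 27 of the 34 measured members, and not for Ctsh, Gprc5a, Napsa, Rtkn2, Scnn1a, Sftpc and Sftpd. The 27 genes had 31 windows, and a gene was counted if any of its windows held the letters. The share over all windows counts each window, so the shares below differ in unit. CTCAAG occurred before 5 of the 27 genes (18.5%), namely Hopx, Sfta2, Sftpa1, Sftpb and Spock2, against 13.3% of all 32851 windows of this length. Sftpb held it at 100 and again at 15 bases before the start. The FOXA letters occurred before Etv5, Lamp3 and Pdpn (11.1%, against 3.17% of all windows). Those of the ATF4 site occurred before Ager alone among the 27 (3.70%, near the 3.45% of all windows), 232 bases before the start. The genotype difference of Ager was -0.07. Any bearing of these letters on the differences was not tested. The motifs overlapped nowhere in the printed windows. Aqp5 and Abca3 have GC-rich windows (78.4% and 67.6% G or C), Lamp3 an AT-rich one (42.4% G or C), with a median of 52.4% over all windows. These matches describe letters and not bound sites.

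None of the 34 alveolar genes was called as changed, which required an adjusted p no higher than 0.05 together with a fold of more than 1.5. Of all clusters 0.276% were called, and of the 14128 clusters with a mean log2 above 8, 0.779%. The lowest adjusted p among the 34 was 0.132, for Aqp5, and the widest difference was 1.39-fold. The 95% interval of the difference stayed within 1.5-fold in either direction (0.58 on the log2 scale) for 24 of the 34. At an unadjusted p under 0.05, 10 members read lower in the knockout (29.4%, against 7.63% of all clusters and 12.3% of those with a mean log2 above 8) and 2 read higher (background 4.40% and 9.86%). Of those 10, 8 were type 2 genes and 2 were type 1 genes.

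The knockout mean was lower for 24 of the 34 members, where 61.0% of all clusters and 56.3% of those above 8 had a lower mean. In 7 members every knockout array lay below every wild-type array (4.41% of all clusters, 6.29% of those above 8) and in 1 every knockout array lay above (2.83% and 6.21%). Without wild-type replicate 1 the counts at an unadjusted p under 0.05 were again 10 lower and 2 higher, with 0 called. Of all clusters 9.95% were then lower and 4.59% higher. In males only the members counted 6 lower and 1 higher, against 5.96% and 3.57% of all clusters. The counts also moved with the scale chosen: with each array centred on its median, 9 were lower, against 5.41% of all clusters. After each array was set to the same mean over 13 pan-epithelial genes (a choice made after seeing the data), 5 were lower and 2 higher, against 2.01% and 7.70% of all clusters. The mean of these 13 genes differed by -0.09 between genotypes, so this setting raises the difference of every gene by that one amount.

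**Figure D1:**
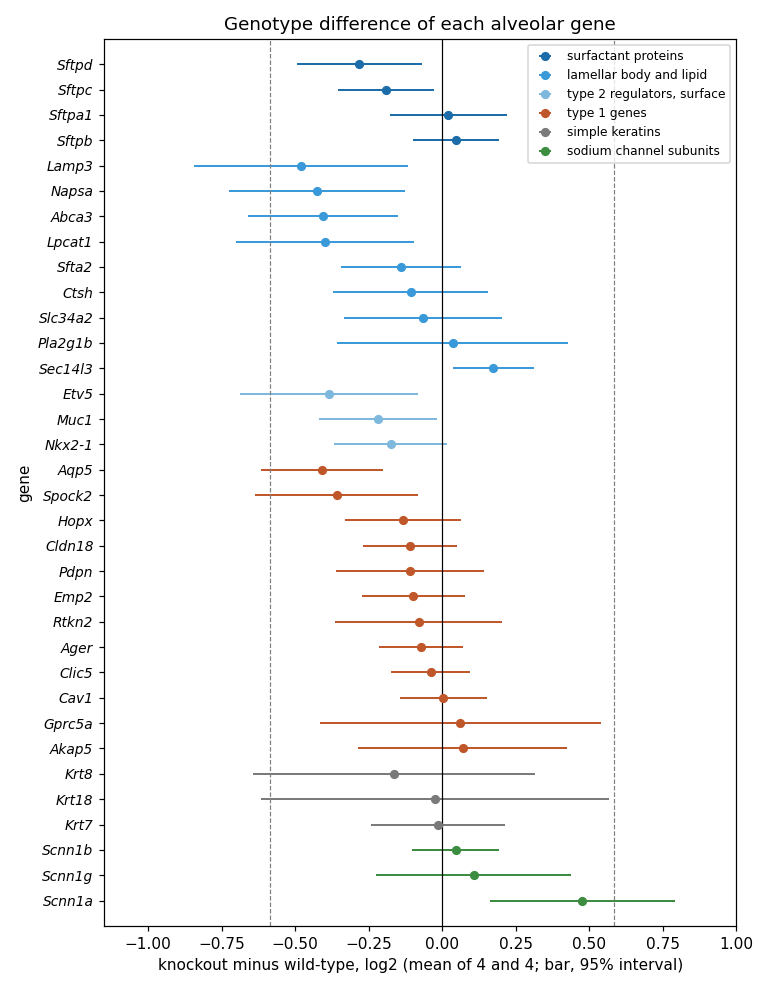
Difference in log2 signal (knockout mean minus wild-type mean, 4 mice each) of the 34 measured alveolar genes, coloured by list, with the 95% interval from limma. Dashed lines mark 1.5-fold, and no point lies beyond them. The lowest points are Lamp3, Napsa, Aqp5, Abca3 and Lpcat1, and the highest is Scnn1a.

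The surfactant proteins split into a pair that read slightly lower in the knockout and a pair that did not. SP-D and SP-A, encoded by Sftpd and Sftpa1, are collectins that bind microbes. SP-B and SP-C, encoded by Sftpb and Sftpc, are small hydrophobic proteins that spread phospholipid at the air-liquid interface. At an unadjusted p under 0.05, 2 of the 4 genes were lower and 0 higher, with 0 called. This count and those of the next lists are to be read against clusters with a mean log2 above 8. Of these clusters, 12.3% were lower and 9.86% higher.

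Sftpd read 14.60, 14.59, 14.92 and 14.67 in the wild-type lungs and 14.47, 14.55, 14.37 and 14.26 in the knockout lungs. Every knockout lung lay below every wild-type lung, by a narrow margin. The difference was -0.28 (SE 0.09, adjusted p = 0.290), or 1.22-fold. Sftpc read 18.71, 18.90, 18.83 and 18.74 in wild-type and 18.65, 18.54, 18.50 and 18.71 in knockout lungs. Only knockout replicate 4 reached the wild-type range, and the difference was -0.19 (SE 0.07, adjusted p = 0.339), or 1.14-fold.

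Sftpb and Sftpa1 did not separate by genotype. Sftpb read 18.72, 18.61, 18.68 and 18.60 in wild-type and 18.72, 18.74, 18.57 and 18.77 in knockout lungs, a difference of 0.05 (95% interval -0.10 to 0.19, adjusted p = 0.831). Sftpa1 read 17.78, 17.86, 17.88 and 17.67 against 17.94, 17.88, 17.59 and 17.86, a difference of 0.02 (95% interval -0.18 to 0.22, adjusted p = 0.956). For both, knockout replicate 3 was the lowest of the 8 lungs. The sign for Sftpa1 turned to -0.02 without wild-type replicate 4 and likewise without knockout replicate 1.

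The machinery that packs and finishes surfactant read lower in the knockout for 4 of 9 genes at an unadjusted p under 0.05 and higher for 1, with 0 called and a median difference of -0.14. The 4 were Lamp3, Napsa, Abca3 and Lpcat1. ABCA3 pumps phospholipid into lamellar bodies, LAMP3 sits in their limiting membrane, napsin A is an aspartic protease that trims the SP-B precursor, and LPCAT1 makes the disaturated phosphatidylcholine that gives surfactant its low surface tension.

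Abca3 read 13.47, 13.55, 13.50 and 13.28 in the wild-type lungs and 13.09, 12.97, 12.80 and 13.32 in the knockout lungs. Knockout replicates 1 to 3 lay below the whole wild-type range and replicate 4 inside it. The difference was -0.41 (SE 0.11, adjusted p = 0.211), or 1.33-fold. Lamp3 read 14.93, 15.26, 15.34 and 15.07 against 14.64, 14.74, 14.25 and 15.05, with the same single overlap by knockout replicate 4. It differed by -0.48 (SE 0.16, adjusted p = 0.291), the widest lower difference of the 34 members.

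Napsa read 12.09, 12.17, 12.38 and 12.07 in the wild-type lungs and 11.90, 11.87, 11.35 and 11.88 in the knockout lungs. Its groups did not overlap, and knockout replicate 3 lay far below the other knockout lungs. The difference was -0.43 (SE 0.13, adjusted p = 0.256). Lpcat1 read 13.11, 13.46, 13.33 and 13.36 against 12.96, 13.07, 12.52 and 13.10, again without overlap. It differed by -0.40 (SE 0.13, adjusted p = 0.290), or 1.32-fold.

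Sec14l3, which encodes a SEC14-like lipid-binding protein, was the one gene of this list to read higher at that threshold. Its signal was 16.76, 16.57, 16.69 and 16.65 in wild-type and 16.84, 16.85, 16.89 and 16.79 in knockout lungs. All 4 knockout lungs lay above all wild-type lungs, by 0.17 on average (SE 0.06, adjusted p = 0.310), or 1.13-fold. The remaining 4 genes of the list differed by between -0.14 and 0.04: Sfta2 (a small secreted protein) by -0.14, Ctsh (cathepsin H, a protease that also acts on surfactant protein precursors) by -0.11, Slc34a2 (the phosphate transporter NaPi-IIb) by -0.07 and Pla2g1b (a secreted phospholipase A2) by 0.04, with adjusted p between 0.596 and 0.961.

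All 3 measured regulators and surface genes of type 2 cells had lower knockout means, and 2 of them did so at an unadjusted p under 0.05, with 0 called. Etv5, an ETS transcription factor that acts downstream of FGF signalling and maintains type 2 cells in mice, read 11.05, 11.05, 11.42 and 11.37 in wild-type and 10.83, 10.97, 10.51 and 11.03 in knockout lungs. The groups did not overlap, and the difference was -0.39 (SE 0.13, adjusted p = 0.304). Muc1, a membrane mucin of the apical surface, read 16.02, 15.94, 16.33 and 15.999 against 15.83, 15.93, 15.85 and 15.81. These groups were separate too, but narrowly, and the difference was -0.22 (SE 0.09, adjusted p = 0.374).

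Nkx2-1, the homeodomain factor that specifies lung epithelium and drives surfactant genes, read 8.35, 8.25, 8.18 and 8.51 in wild-type and 8.15, 8.15, 8.02 and 8.25 in knockout lungs. The ranges overlapped, and the difference of -0.18 (95% interval -0.37 to 0.02, adjusted p = 0.462) missed the unadjusted threshold as well. Over the 16 measured type 2 genes as a whole, 8 were lower (50%) and 1 higher at an unadjusted p under 0.05. Of all clusters 7.63% were lower and 4.40% higher, and of those with a mean log2 above 8, 12.3% and 9.86%. The median difference of the 16 genes was -0.18, with a range from -0.48 to 0.17. The median over all clusters was -0.03, with quartiles of -0.11 and 0.05. Setting each array to its pan-epithelial mean brought the type 2 median to -0.095.

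**Figure D2:**
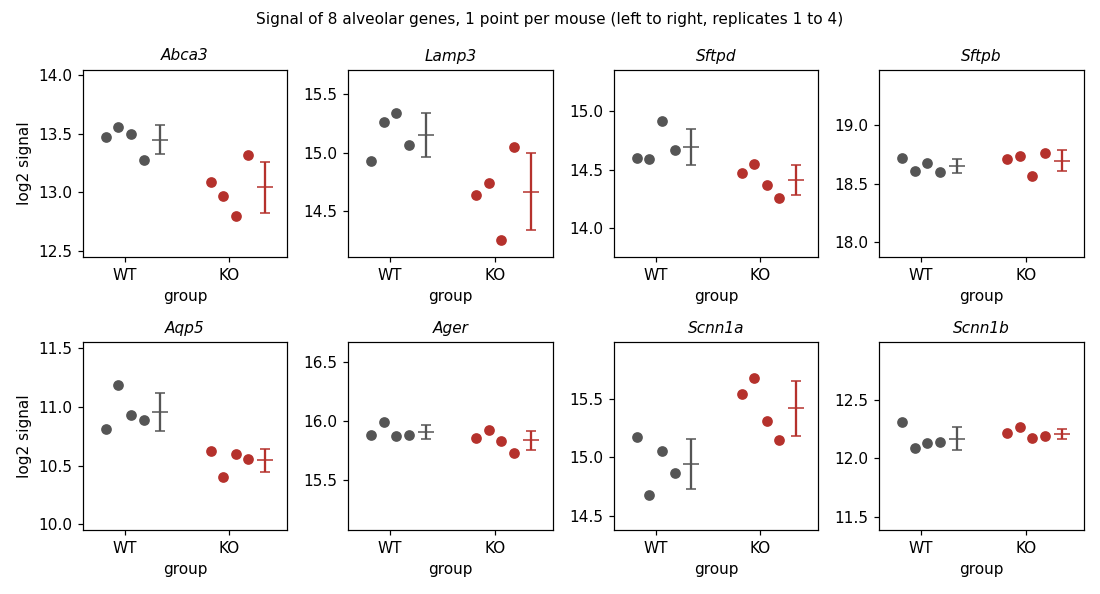
Log2 signal of 8 alveolar genes in each mouse (points, replicates 1 to 4 from left to right), with the group mean and SD at the right of each group; every panel spans the same log2 range. Abca3, Lamp3, Sftpd and Aqp5 lie lower in the knockout, Scnn1a higher, and Sftpb, Ager and Scnn1b at the same level within their spread.

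Many type 2 genes were extreme in the same lungs. Knockout replicate 3 held the lowest value of the 8 arrays for 11 of the 16 genes and the lowest knockout value for 12, while knockout replicate 4 held the highest knockout value for 8. Wild-type replicate 3, the female of its group, held the highest value of all for 7. Averaged over the 16 genes, the deviation from the wild-type mean was -0.04, -0.04, 0.12 and -0.04 in the wild-type lungs and -0.15, -0.10, -0.39 and -0.11 in the knockout lungs. Every knockout lung was thus below every wild-type lung in this mean, and replicate 3 stood furthest away.

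Without knockout replicate 3 the type 2 median was -0.15. Abca3 then differed by -0.32, Lamp3 by -0.34, Napsa by -0.29 and Lpcat1 by -0.27, so the sign of these differences did not rest on that lung. Knockout replicate 3 also had the lowest neutrophil signal of the knockout group, with a mean of 9.49 over the 7 markers against 11.6 to 13.4 in the other knockout lungs and 8.31 to 9.38 in wild-type. Its fibroblast markers were the highest of the knockouts (a mean of 10.3 against 9.30 to 10.1). Other blood markers did not share the low neutrophil signal. Its erythroid mean was the highest of the 8 lungs (11.1, against 9.53 to 10.7 in the other knockouts and 7.58 to 7.94 in wild-type), and its platelet mean of 12.6 lay within the 11.6 to 12.9 of the other knockouts. Its alveolar macrophage mean was the lowest of all (8.84, against 9.13 to 9.59 in the other 7 lungs). The part of these cells in its low type 2 signal was not tested.

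**Figure D3:**
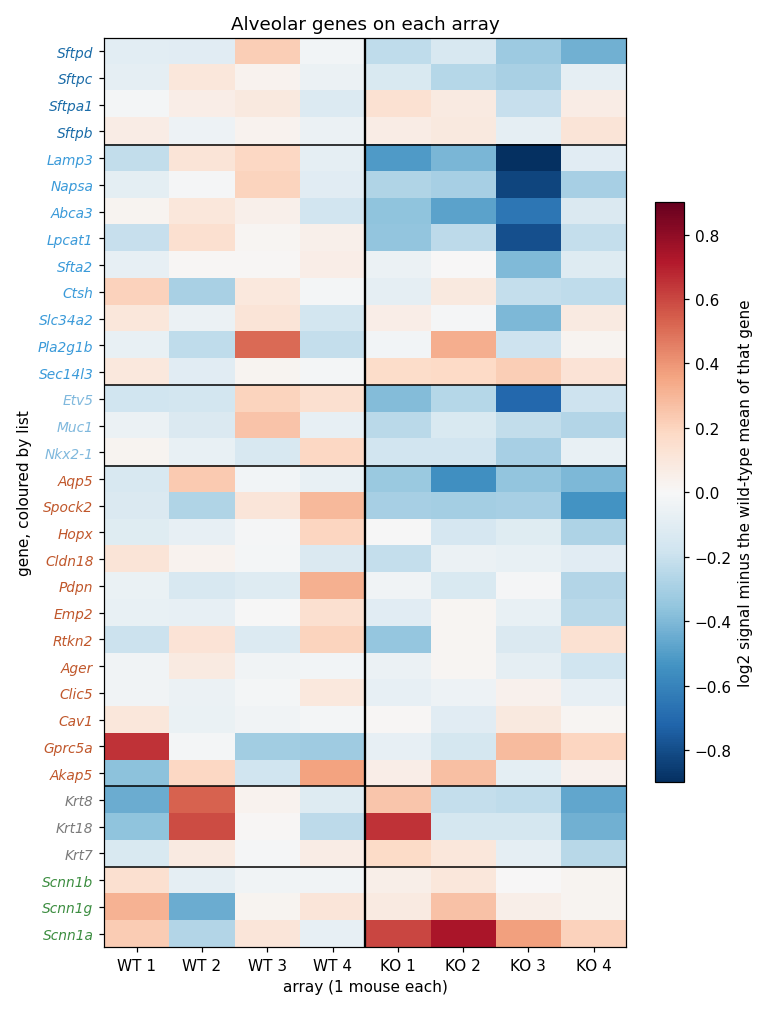
Heat map of the 34 measured alveolar genes (vertical axis, gene names coloured by list) on the 8 arrays (horizontal axis), each cell showing the log2 signal minus the wild-type mean of that gene; blue is lower and red higher. Knockout replicate 3 is the bluest knockout column for 12 of the 16 type 2 genes, and the Scnn1a row is red in all 4 knockout lungs.

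Of the 12 type 1 genes, 2 read lower at an unadjusted p under 0.05 and 0 higher, with 0 called. That is 16.7%, near the 12.3% of clusters with a mean log2 above 8 that read lower at this threshold. The median difference was -0.09 (range -0.41 to 0.07), against -0.03 over all clusters. This median was -0.05 without wild-type replicate 4 or without knockout replicate 4, and shrank to -0.00072 when each array was set to its pan-epithelial mean. The 2 genes were Aqp5 and Spock2.

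Aqp5, the water channel of the type 1 apical membrane, had the smallest p of all members. It read 10.81, 11.19, 10.93 and 10.89 in the wild-type lungs and 10.62, 10.40, 10.60 and 10.55 in the knockout lungs. All knockout lungs lay below all wild-type lungs, and the difference was -0.41 (SE 0.09, adjusted p = 0.132), or 1.33-fold. Spock2, which encodes the matrix proteoglycan testican-2, read 12.34, 12.20, 12.58 and 12.76 against 12.17, 12.17, 12.17 and 11.93. Its groups were separate as well, with 3 knockout lungs at nearly one value, and it differed by -0.36 (SE 0.12, adjusted p = 0.298).

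Ager, Pdpn and Hopx, which also mark type 1 cells, overlapped between the genotypes. Ager, the receptor for advanced glycation end-products, read 15.88, 15.99, 15.87 and 15.88 in wild-type and 15.85, 15.93, 15.83 and 15.73 in knockout lungs. Its difference was -0.07 (95% interval -0.22 to 0.07, adjusted p = 0.711), or 0.02 after the pan-epithelial shift that all genes share. Pdpn (podoplanin, a membrane glycoprotein) read 12.70, 12.61, 12.64 and 13.08 against 12.72, 12.62, 12.75 and 12.50, a difference of -0.11 (95% interval -0.36 to 0.14, adjusted p = 0.758). Apart from a high wild-type replicate 4, the values of both groups lay together.

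Hopx, a homeodomain-only protein of type 1 cells, read 9.98, 10.02, 10.09 and 10.29 in wild-type and 10.09, 9.94, 9.99 and 9.82 in knockout lungs, overlapping over most of its range. It differed by -0.13 (95% interval -0.33 to 0.06, adjusted p = 0.598). A second cluster of the same gene read 5.31 in wild-type and 5.42 in knockout lungs on average, near the median of all clusters, and differed by 0.12 (adjusted p = 0.583).

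The other 7 type 1 genes differed by between -0.11 and 0.07, with adjusted p from 0.598 to 0.993. They were Cldn18 (a tight junction claudin, -0.11), Emp2 (a tetraspan membrane protein, -0.10), Rtkn2 (rhotekin 2, -0.08), Clic5 (a chloride intracellular channel protein, -0.04), Cav1 (caveolin 1, 0.00), Gprc5a (an orphan receptor, 0.06) and Akap5 (an anchor for protein kinase A, 0.07). Gprc5a was the least even of them, reading 17.19 in wild-type replicate 1 and 16.21 to 16.52 in the other wild-type lungs.

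Across arrays the type 1 genes followed a different order from the type 2 genes. Knockout replicate 4, the highest knockout lung for 8 type 2 genes, held the lowest value of all arrays for 6 of the 12 type 1 genes, and wild-type replicate 4 the highest for 7. The mean deviation of the 12 genes was -0.02, -0.00, -0.06 and 0.09 in wild-type and -0.12, -0.10, -0.07 and -0.14 in knockout replicates. As for the type 2 genes, every knockout lung lay below every wild-type lung in this mean. The margin was very narrow, with knockout replicate 3 at -0.066 and wild-type replicate 3 at -0.063. The mean type 2 deviation minus the mean type 1 deviation was -0.01, -0.04, 0.18 and -0.13 in wild-type and -0.03, -0.00, -0.33 and 0.03 in knockout lungs. These ranges overlapped, so the type 2 genes were not separated from the type 1 genes by genotype beyond the spread between mice.

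The keratins of simple epithelia, which form the intermediate filaments of both cell types and of airway cells, showed no difference beyond their spread. Krt7 differed by -0.02, Krt18 by -0.03 and Krt8 by -0.17, with adjusted p from 0.814 to 0.983. Krt8 and Krt18, which pair in one filament, varied widely within groups. Krt8 read 10.43, 11.41, 10.91 and 10.75 in wild-type and 11.12, 10.66, 10.64 and 10.40 in knockout lungs. Krt18 read 9.05, 10.001, 9.42 and 9.17 against 10.06, 9.25, 9.26 and 8.98. Wild-type replicate 2 and knockout replicate 1 were the highest of their groups for both.

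The epithelial sodium channel is built from an alpha, a beta and a gamma subunit, and the alpha subunit is needed for fluid clearance from the newborn mouse lung. Of the 3 genes, 1 read higher in the knockout at an unadjusted p under 0.05 and 0 lower, with 0 called. Scnn1a (alpha) read 15.17, 14.68, 15.05 and 14.87 in wild-type and 15.54, 15.68, 15.31 and 15.15 in knockout lungs. Knockout replicates 1 to 3 lay above the wild-type range, and replicate 4 lay just below wild-type replicate 1. The difference was 0.48 (SE 0.14, adjusted p = 0.230), or 1.39-fold, the widest higher difference of the 34 members. It lay between 0.39 and 0.57 with any 1 array left out.

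The partner subunits did not separate by genotype. Scnn1b (beta) read 12.31, 12.09, 12.13 and 12.14 in wild-type and 12.22, 12.27, 12.17 and 12.19 in knockout lungs, a difference of 0.04 (95% interval -0.10 to 0.19, adjusted p = 0.840). Scnn1g (gamma) read 14.31, 13.55, 14.02 and 14.11 against 14.08, 14.26, 14.05 and 14.02, a difference of 0.11 (95% interval -0.23 to 0.44, adjusted p = 0.831). The low wild-type replicate 2 set that sign, since the difference was -0.04 without it. The median of the 3 subunits, 0.11, became 0.02 without wild-type replicate 2, 0.05 without knockout replicate 2 and 0.21 without wild-type replicate 1.

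**Figure D4:**
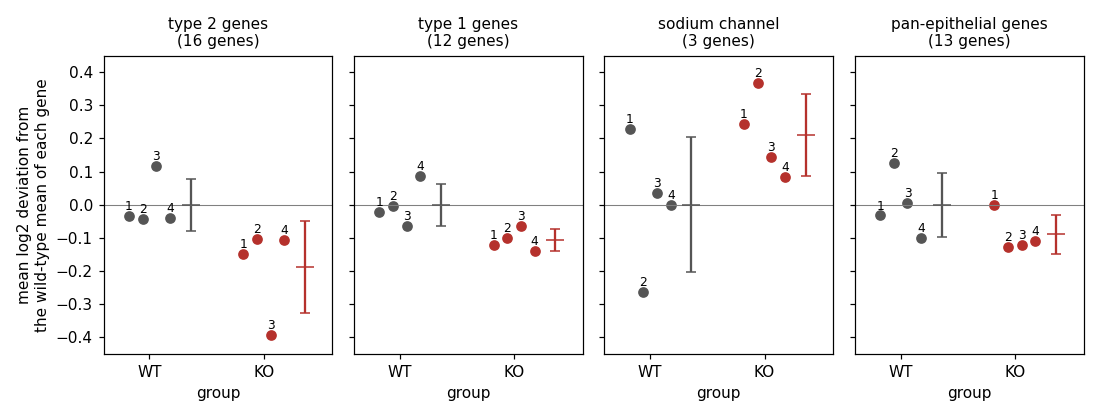
Mean log2 deviation from the wild-type mean of each gene, averaged over the 16 type 2 genes, the 12 type 1 genes, the 3 sodium channel subunits and the 13 pan-epithelial genes, 1 numbered point per mouse with the group mean and SD beside it. Knockout replicate 3 is at -0.39 for type 2 genes and at -0.07 for type 1 genes.

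Other genes of the same cells and pathways were read in 7 lists, with 0 called in each. Their counts at an unadjusted p under 0.05 are to be read against the 12.3% of clusters with a mean log2 above 8 that were lower and the 9.86% that were higher, and their medians against -0.03. Among 15 further type 2 genes, 4 read lower (26.7%) and 0 higher at an unadjusted p under 0.05, with a median of -0.26. The smallest p were those of Ppp1r14c, an inhibitor subunit of protein phosphatase 1, which differed by -0.58 (SE 0.11, adjusted p = 0.0768), and S100g, the calcium-binding protein calbindin-D9k, which differed by -0.90 (SE 0.20, adjusted p = 0.125). The groups did not overlap for either. S100g ranged from 7.75 to 8.48 in wild-type and from 6.77 to 7.57 in knockout lungs, with knockout replicate 3 again the lowest.

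Among 13 further type 1 genes, 5 were lower (38.5%) and 1 higher, with a median of -0.06. Col4a3, a basement membrane collagen chain, differed by -0.41 (SE 0.09, adjusted p = 0.140). Igfbp2, a binding protein for insulin-like growth factors that marks mature type 1 cells in mice, differed by -1.06 (SE 0.28, adjusted p = 0.190), or 2.09-fold. It read 10.37, 9.57, 9.85 and 10.87 in wild-type and 9.30, 8.61, 9.37 and 9.12 in knockout replicates, without overlap.

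Of 19 transcription factors and receptors that act in lung epithelium, 6 were lower (31.6%) and 0 higher at the same threshold, with a median of -0.10. Cebpa, a C/EBP factor needed for type 2 cell maturation in mice, had the smallest p. It read 9.97, 10.34, 10.22 and 10.28 in wild-type and 9.77, 9.54, 9.78 and 9.57 in knockout lungs. The groups were separate, and the difference was -0.54 (SE 0.10, adjusted p = 0.0706). Fgfr2, the FGF receptor of alveolar epithelium, differed by -0.36 (SE 0.11, adjusted p = 0.240), also without overlap.

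The enzymes that make phospholipid and fatty acid did not lie lower as a group. Of 19, 3 were lower (15.8%, near the background) and 1 higher, and the median was -0.00. Chka, a choline kinase at the entry to phosphatidylcholine synthesis, differed by -0.27 (SE 0.07, adjusted p = 0.184). Elovl6, which lengthens palmitate, differed by 0.85 (SE 0.29, adjusted p = 0.305). Its 4 knockout lungs read 9.76, 8.48, 8.80 and 9.85, against 8.14 to 8.59 in wild-type.

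Genes of the transitional state between type 2 and type 1 cells counted 2 lower (18.2%) and 2 higher of 11, with a median of 0.09. Ndrg1, a stress-responsive gene, differed by 0.41 (SE 0.11, adjusted p = 0.194) and Lcn2, the siderophore-binding lipocalin that neutrophils also carry, by 0.81 (SE 0.27, adjusted p = 0.282). Of 15 further genes of ion and water transport, 0 were lower and 2 higher, with a median of 0.02. These were Hsd11b2, which inactivates glucocorticoid (0.42, SE 0.17, adjusted p = 0.372), and Sgk1, a kinase that raises sodium channel activity at the membrane (0.30, SE 0.12, adjusted p = 0.390).

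Genes shared by all epithelia had a median of -0.10 over 13, with 2 lower (15.4%, near the background) and 0 higher. Spint2, an inhibitor of membrane serine proteases, differed by -0.35 (SE 0.08, adjusted p = 0.165) and Epcam, the epithelial adhesion molecule, by -0.25 (SE 0.08, adjusted p = 0.274). The mean deviation of the 13 genes was -0.03, 0.13, 0.01 and -0.10 in wild-type and -0.00, -0.13, -0.12 and -0.11 in knockout lungs. Knockout replicate 1 and wild-type replicate 4 overlapped the other group. The share of epithelial RNA in these lungs was not measured otherwise, and its part in the alveolar differences was not tested beyond the centring given above.

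Markers of other cell types were read beside the alveolar genes. Of 6 club cell genes and 5 ciliated cell genes, 0 passed an unadjusted p under 0.05. Some of their differences were nevertheless as wide as those of the alveolar genes, with more spread. Scgb3a2, a secretoglobin of club cells, differed by -0.43 (95% interval -0.88 to 0.03, adjusted p = 0.452), and Scgb3a1, another, by -0.47 (95% interval -2.70 to 1.76, adjusted p = 0.895). Krt15, which had the second smallest p of the club cell list (0.08, adjusted p = 0.781), is better known from basal cells and read below the array medians. In ciliated cells the smallest p belonged to Tppp3 (-0.25, adjusted p = 0.613) and Dynlrb2 (-0.17, adjusted p = 0.669). Of 7 endothelial genes, 3 were higher and 1 lower at that threshold. Of clusters with a mean log2 above 8, 9.86% were higher and 12.3% lower. By mean alone 4 of the 7 were higher and 3 lower. The widest difference of the list was that of the lower gene, Car4 (-0.39, SE 0.14, adjusted p = 0.330). Pecam1, the junctional molecule CD31, differed by 0.32 (SE 0.08, adjusted p = 0.168) and Tek, the angiopoietin receptor, by 0.30 (SE 0.10, adjusted p = 0.305).

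Blood and stromal markers held the called genes. In the platelet list all 6 were higher at an unadjusted p under 0.05, and 3 were called. Those called included Itgb3, an integrin of the fibrinogen receptor (3.30, SE 0.46, adjusted p = 0.0329), and Tubb1, platelet tubulin (3.64, SE 0.52, adjusted p = 0.0368). In the erythroid list all 3 were higher at that threshold, and 2 were called. The called genes were Bpgm (1.25, adjusted p = 0.0409) and Alas2, an enzyme of haem synthesis in red cell precursors (2.93, adjusted p = 0.0410). In the fibroblast list 4 of 6 were lower at that threshold, and 3 were called. Those called included the fibrillar collagens Col3a1 (-2.46, SE 0.26, adjusted p = 0.0133) and Col1a1 (-2.03, SE 0.23, adjusted p = 0.0160). Not every fibroblast marker followed. Tcf21 (-0.34, adjusted p = 0.562) and Dcn (0.08, adjusted p = 0.962) overlapped between the genotypes. Of 7 neutrophil genes 0 were called, though 6 were higher at an unadjusted p under 0.05, with Csf3r at 3.16 (adjusted p = 0.0930) and S100a9 at 2.96 (adjusted p = 0.140). Apart from Tcf21 and Dcn, each of these named blood and stromal genes differed by more than any of the 34 alveolar genes. The part of the blood and stromal genes in the alveolar values was not tested.

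A pair of technical readings also moved with the groups or the level. The mean log2 of 1975 clusters of small nuclear, small nucleolar and ribosomal RNA was 6.61, 7.26, 7.05 and 7.18 in wild-type and 6.90, 6.89, 6.78 and 6.68 in knockout replicates, overlapping only through wild-type replicate 1. Of the 9 members with a mean log2 above 16, 1 was lower and 1 higher at an unadjusted p under 0.05 and the median was -0.04, while of the 25 dimmer members 9 were lower and 1 higher, with a median of -0.13. Neither reading was tested as a source of the differences.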

How the data were processed

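Whole-lung total RNA of 8 mice was hybridised by the authors to Clariom D mouse arrays, whose features are transcript clusters. The deposited values are log2 signals from robust multi-array averaging (background correction, quantile normalisation and probe summary), which the authors ran with default settings in Transcriptome Analysis Console 4. The variant was not given in the sources used here. Quantile normalisation hides a shift shared by most transcripts. The log2 values run from 2.09 to 19.7, and 457 clusters exceed 16 on every array, so folds hold on this deposited scale only. Arrays have no read depth, and the number of mice limits the precision.

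Groups came from the labels, whose titles name biological replicates. Gene symbols came from the platform annotation (30638 clusters with 1 symbol, 2176 with several, 33142 with none). Genotypes were compared by limma 3.58.1 under R 4.3.3, with lmFit, eBayes, two-sided tests, no covariate and Benjamini-Hochberg adjustment over all 65956 clusters. The calling thresholds (adjusted p 0.05, fold 1.5) followed the study's array methods. Lists were described by counts and medians only, and 105 of 112 pathway genes and 68 of 79 cell type markers were measured. The alveolar genes and all lists were chosen with earlier results of these data known.

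Values on every array are given for the surfactant proteins, Abca3, Nkx2-1, Ager, Hopx, Aqp5, Pdpn, the sodium channel subunits and those 12 members whose p was smallest. Of each other list the 2 genes of smallest p are named. Krt8, Krt18, Scgb3a1, Car4, Tcf21 and Dcn lie outside this rule, and their values were added after they were seen. The alternatives comprised median centring, cyclic loess, removal of dim clusters, 1 cluster or a mean of clusters per gene, a trended and robust eBayes, weighted arrays, the methods' t-test, adjustment for sex, males alone, a replicate block, leaving out single arrays, and other thresholds. Promoter windows came from RefSeq (GRCm38.p6). Figures were drawn with matplotlib 3.10.9.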

Additional observations from a re-analysis of the deposited data

Results flagged for a closer look

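In 3 of the 68 groups of 4 lungs tested (34 genes in 2 genotypes), 1 lung lay far from the other 3, its gap to the nearest lung exceeding Dixon's 95% critical value as a share of the whole range. Chance gives such a gap in about 1 in 20 groups, so these 3 are no more than chance would give. Napsa read 11.35 in knockout replicate 3, where the nearest knockout lung read 11.87, a gap of 0.950 of the range. Without that lung the Napsa difference was -0.29. Spock2 read 11.93 in knockout replicate 4 against 12.17 in the nearest lung, a gap of 0.967 of the range. Ager read 15.99 in wild-type replicate 2 against 15.88 in the nearest lung, a gap of 0.921 of the range.

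The genotype difference was also compared between the sexes, with 1 female per group. Among the 34 members 0 had an interaction at an adjusted p of at most 0.05 in limma and 0 at an unadjusted p under 0.05, and the lowest adjusted p was 0.781. Over all clusters 0 and 4522 met these thresholds.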

How the results depend on the processing

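Of the 34 measured genes 0 were called under any of 20 other settings or 2 looser thresholds. Some of these settings, listed in the next paragraph, called few or none of all clusters, so they could scarcely have called a member. The unadjusted counts were added after seeing the data: 10 lower and 2 higher became 6 and 1 in males only and 5 and 2 with each array set to its pan-epithelial mean, and 8 to 10 lower and 1 to 2 higher with 1 array left out (1 higher without wild-type replicate 2 or knockout replicate 3, where Sec14l3 was lost). The type 2 median of -0.18 became -0.095 under pan-epithelial centring and lay between -0.21 and -0.15 with 1 array left out. The type 1 median of -0.09 became -0.00072 under that centring and lay between -0.11 and -0.05 with 1 array left out, at -0.05 without either wild-type replicate 4 or knockout replicate 4. The sodium channel median lay between 0.02 and 0.21. Pan-epithelial centring shifts every gene alike, which by construction carried Ager past 0 (0.016). Signs also reversed for Scnn1g without wild-type replicate 2 (-0.043, range -0.043 to 0.21 with 1 array left out) and for Sftpa1 without wild-type replicate 4 (-0.022) or knockout replicate 1 (-0.020, range -0.022 to 0.096). The cause of these was not tested. The other 396 values of the 20 members given on every array by the rule above kept their direction and their side of the threshold. Among the measured members outside that rule, signs turned more often. Of the 20 settings, Krt18 kept its sign in 13, Krt7 in 14, Cav1 in 15, Pla2g1b in 16 and Gprc5a in 17. Slc34a2, Clic5, Rtkn2 and Akap5 kept it in 18 and Krt8 in 19. Sfta2, Ctsh, Cldn18 and Emp2 kept it in all 20. Abca3, Napsa, Lpcat1, Aqp5 and Scnn1a had an unadjusted p under 0.05 in each of the 20 settings. Centring on array medians or cyclic loess moved the median of all clusters from -0.03 to -0.00, and pan-epithelial centring moved it to 0.06.

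Over all clusters 182 were called, against 0 with the replicate number as a block, 0 by the methods' t-test (7261 at an unadjusted p under 0.05; the methods give this test for comparisons generally, without naming the arrays), 4 in males only, and 8 without wild-type replicate 3 or without knockout replicate 1. With the replicate block 0 members were called, and 9 were lower and 2 higher at an unadjusted p under 0.05. Of all clusters 7.33% were lower and 4.33% higher under that setting. The medians of the lists did not move. Lungs with the same replicate number did not deviate together (correlations of -0.04, 0.06, 0.03 and -0.19), so the number does not pair them.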

Other observations

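Genes of fatty acid synthesis spread widely among the knockout lungs. They were chosen for this paragraph after their values were seen. Fasn, the fatty acid synthase, read 13.40, 12.25, 12.08 and 13.27 in knockout replicates 1 to 4 and 12.29 to 13.00 in wild-type lungs. Acaca, which makes malonyl-CoA, read 10.42, 9.79, 9.62 and 10.42, against 9.60 to 9.93 in wild-type. Scd1, the stearoyl-CoA desaturase, read 17.81, 17.31, 17.12 and 17.91, against 16.95 to 17.44 in wild-type. Replicates 1 and 4 lay above the wild-type range for each of these genes and for Elovl6, and none of the 4 genes passed the adjusted threshold (adjusted p between 0.305 and 0.985). Fabp4, listed here with alveolar macrophages and abundant in adipocytes, was also high in these lungs, reading 9.90, 7.36, 7.59 and 9.92 in knockout replicates 1 to 4 and 9.15, 9.07, 7.50 and 7.61 in wild-type lungs. Its part in the values above was not tested. For type 2 genes the mean deviation was -0.15, -0.10, -0.39 and -0.11 in replicates 1 to 4, so replicates 1 and 4 did not lie above replicate 2. Replicate 3 was the lowest knockout lung for Fasn, Acaca and Scd1, as it was for 12 of the 16 type 2 genes. For Elovl6 the lowest was replicate 2. A link between these genes and the type 2 genes was not tested.

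Among the remaining marker lists, 0 genes were called. Of 5 alveolar macrophage genes 0 had an unadjusted p under 0.05, with the smallest p for Cd68 (0.17, adjusted p = 0.723) and Pparg (-0.10, adjusted p = 0.742). The same count held for 5 smooth muscle genes (Myh11 0.61, adjusted p = 0.632, and Acta2 0.44, adjusted p = 0.642), for 5 mesothelial genes (Upk1b -0.31, adjusted p = 0.680, and Msln -0.25, adjusted p = 0.891) and for 4 B cell genes (Ms4a1 0.31, adjusted p = 0.730, and Cd79a 0.21, adjusted p = 0.814). Of 5 T cell genes 1 was lower, Cd3d (-0.25, adjusted p = 0.346), followed by Cd5 (-0.28, adjusted p = 0.716). Of 4 cell cycle genes 1 was lower, Cdk1 (-0.28, adjusted p = 0.243), followed by Top2a (-0.47, adjusted p = 0.490).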
